A study of Mus musculus with 24 samples.

Results

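The 42 genes described here encode the machinery by which a fat cell takes up glucose and breaks it down (23 genes from the transporter Slc2a4 to the glycogen branching enzyme Gbe1) and the machinery by which it responds to insulin (19 genes from the receptor Insr to the feedback inhibitor Socs3). They were chosen by symbol, as the probes whose accession maps to one of these symbols, with Pkm also known as Pkm2 and Trarg1 as Tusc5, out of 13014 named genes and 21051 features measured in all. Of the 42 genes, 41 were measured; the 1 probe of Foxo3, a forkhead transcription factor, was well above background on too few arrays and has no value here. Transcripts were measured in the epididymal fat pads (visceral white fat that lies along the epididymis) of 24 male C57BL/6JRcc mice aged 28 or 29 weeks. For 18 weeks, 12 mice (Ctrl NR) were fed vitamin B3 as nicotinamide riboside (NR) at 30 mg per kg of semi-synthetic diet, and 12 mice (No NR) were fed it at 0 mg. Both diets took 40% of their energy from fat and held 0.115% tryptophan, a low but adequate amount, and all mice had eaten the Ctrl NR diet before the groups were formed. All 24 mice were given 0.8 g of diet at the start of the dark phase so that they were fasted at its end, then refed 1.8 g of diet for 4 h before the tissue was taken, so every value below is that of recently refed mice. Every array carried the RNA of 1 mouse in Cy5 together with a common pool in Cy3, made of fat-pad RNA that also held other diets and 4 females. A value is therefore a log2 ratio, a mouse's level relative to the pool, and levels of different genes are not compared.

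Insulin binds its receptor, which phosphorylates the insulin receptor substrates; these recruit PI3 kinase, which activates AKT. In fat cells AKT moves the glucose transporter GLUT4 (Slc2a4) to the cell surface and keeps the FOXO transcription factors out of the nucleus. Glucose that enters is phosphorylated by hexokinase, stored as glycogen or taken through glycolysis to pyruvate, which is reduced to lactate or oxidised in mitochondria. Vitamin B3 is a precursor of NAD, the electron carrier that glyceraldehyde-3-phosphate dehydrogenase and lactate dehydrogenase use.

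The 5 slides held 2, 2, 2, 4 and 2 Ctrl NR arrays beside 1, 3, 3, 2 and 3 No NR arrays. The percentage of spots well above background ran from 34.5% to 50.7% over the arrays. The tissue label was matched by its markers: 21 of 21 adipocyte markers and 28 of 30 macrophage markers were measured, against 1 of 10 skeletal muscle markers (Acta1), a tissue that also expresses Eno3 and Pfkm. Between diets, values in No NR mice were above those in Ctrl NR mice for 27 of 28 macrophage markers (2 at an unadjusted p under 0.05), and below them for 11 of 14 endothelial markers (6 at that level). They were also above for 8 of 9 stromal progenitor markers (median difference 0.22) and below for 8 of 8 mesothelial (median -0.20) and 4 of 4 measured red cell markers (median -0.18). Of the 21 adipocyte markers, 14 were below and 7 above (median -0.12). The 1 adipocyte marker at an unadjusted p under 0.05, Lpl, was above. The macrophage and endothelial means were each tried as a covariate, with the values given here; the part of the other marker lists was not tested. Of 8 epididymis and testis markers 3 were measured, with a mean from -2.57 to 3.05 over mice, and their part was not tested. The mean log2 ratio of the macrophage markers ranged from -1.60 to 0.69 over Ctrl NR and from -1.04 to 0.60 over No NR mice, and that of the adipocyte markers from -0.60 to 0.57 and from -0.54 to 0.70. In bulk tissue, fewer cells of a type and less RNA per cell cannot be told apart.

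The first comparison asked whether these genes differ when dietary vitamin B3 is withdrawn. At an adjusted p under 0.05 in limma (Benjamini-Hochberg over all features), 0 of the 41 measured members and 0 of the 21051 features (0%) passed. With the brightest kept probe of each gene, 5 members were listed at an unadjusted p under 0.05, all of them glycolysis genes: Slc2a8, Pfkl and Pfkm had lower and Tpi1 and Pgam1 higher values in No NR mice. This share of 5 in 41 lies near the background, since 14.1% of all features met the same level (6.87% of all features with higher and 7.23% with lower values). That all 5 were glycolysis genes depends on the choice of probe. A dimmer probe each of Tbc1d4 (-0.22, limma p = 0.00658), Akt2 (-0.30, limma p = 0.0220) and Hk1 (-0.28, limma p = 0.00615) also met the level. The dimmer probe of Tpi1 did not (0.10, limma p = 0.397). With the mean of the kept probes, 7 members met it (14.3% of all features did). Over all 41 members the median log2 difference, No NR minus Ctrl NR, was -0.07, against -0.01 over all features. The 23 glycolysis genes had a median of -0.03, with 9 higher and 14 lower, and the 18 insulin signalling genes one of -0.10, with 3 higher and 15 lower, where 47.6% of all features were higher. Of the 15 insulin signalling genes with lower values, 11 kept their sign in all 40 alternative settings, and of the 14 glycolysis genes with lower values 6 did. Of the genes with higher values, 1 of 3 insulin signalling and 3 of 9 glycolysis genes did. The settings refit the same mice, most of them without 1 mouse, and the share over all features was not counted. With the endothelial marker mean as a covariate, the medians of the glycolysis and insulin signalling genes were 0.01 and -0.03, and Slc2a4 was at 0.10, Insr at 0.04 and Irs1 at 0.00. With slide as a block, 7 members met the unadjusted level (13.2% of all features did), Pfkp and Gpi1 among them. With median centring in place of loess the medians of the glycolysis and insulin signalling genes were -0.19 and -0.22, against -0.06 over all features.

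**Figure D1:**
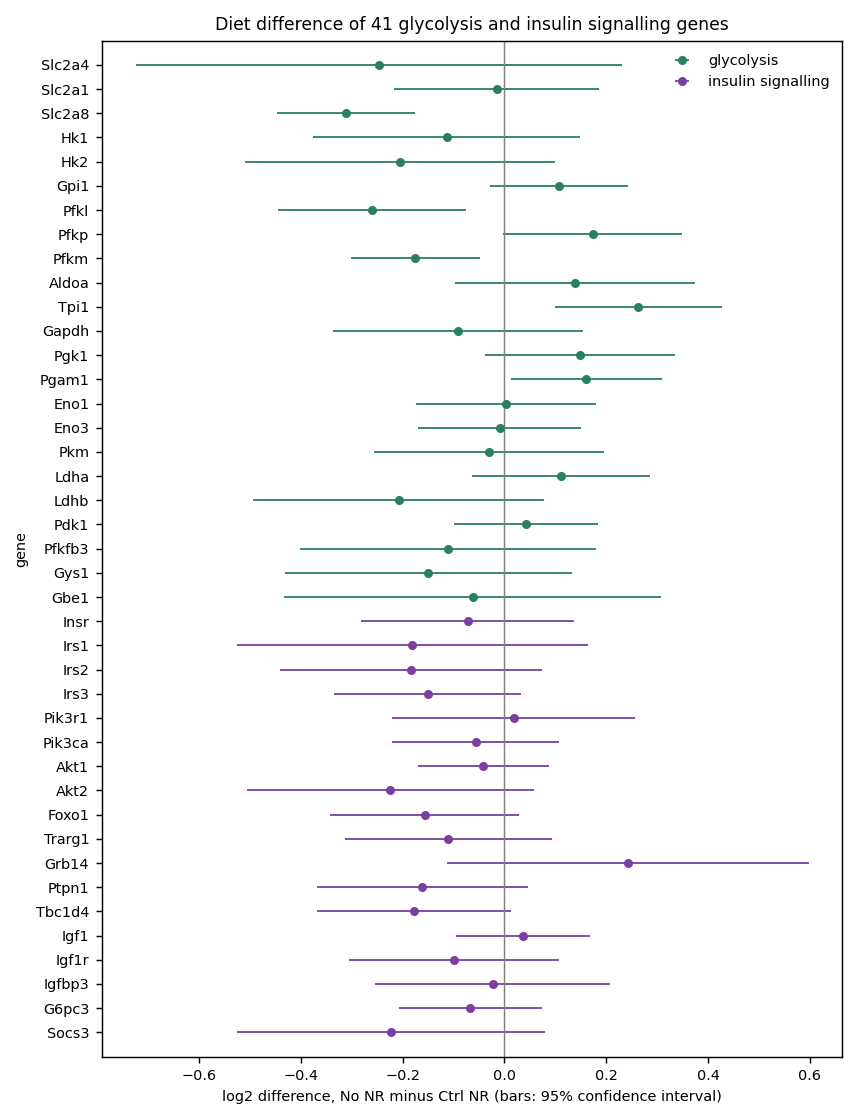
Log2 difference between diets (No NR minus Ctrl NR) for each of the 41 measured genes, with its 95% confidence interval from limma, in green for glycolysis and in purple for insulin signalling. The intervals of Slc2a8, Pfkl and Pfkm lie below 0 and those of Tpi1 and Pgam1 above it, while the interval of each insulin signalling gene spans 0.

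Of the 3 glucose transporters, Slc2a8 (GLUT8, a transporter held mostly on membranes inside the cell) had the lowest p of all 41 genes. In Ctrl NR mice its log2 ratio ranged from -0.52 to 0.11 with a median of -0.08, and in No NR mice from -0.61 to -0.20 with a median of -0.45. All 12 No NR mice lay under the median of the Ctrl NR mice, and 8 Ctrl NR mice lay above every No NR mouse, but the groups overlapped. The means were -0.11 ± 0.17 and -0.42 ± 0.13 (SD, n = 12 per diet), a log2 difference of -0.31 (SE 0.066), with a limma adjusted p of 0.0764. At an adjusted p under 0.10, 0.808% of all features were listed, and Slc2a8 was the only member among them. Its difference was negative on slides 2 to 5 (-0.36, -0.21, -0.34 and -0.52) and 0.06 on slide 1, which held 3 mice. With slide as a block the difference was -0.31 (limma p = 0.000308, adjusted p = 0.172). With the macrophage marker mean as a covariate the difference was -0.28 and its adjusted p 0.0385. Slc2a8 also rose with the endothelial marker mean across mice (r = 0.70, rho = 0.69, permutation p = 0.00024 and 0.0004; 0.63 within Ctrl NR, 0.77 within No NR and 0.65 without the 2 mice farthest from the median), whose markers were lower in No NR mice. With the endothelial mean as a covariate its difference was -0.23 (SE 0.0586; limma adjusted p = 0.0708). Left without 1 mouse at a time, it stayed between -0.35 and -0.29, and the adjusted p was 0.0195 without Ctrl NR mouse 117, 0.0430 without Ctrl NR mouse 104 and 0.0290 without Ctrl NR mouse 68. With array weights it was 0.0206, and over all alternatives it ran from 0.0195 to 1.00, the latter with median centring. Across mice within diets, Slc2a8 also followed the unnamed probe A_55_P2138100 (r = 0.69), one of the features with the lowest p between diets; the part of that relation in the difference was not tested.

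Slc2a4, the insulin-responsive transporter GLUT4 of fat and muscle, varied more between mice than any other member, with a pooled SD of 0.62 against a median of 0.25 over the members. It ranged from -1.03 to 1.05 with a median of -0.04 in Ctrl NR mice and from -1.09 to 0.68 with a median of -0.45 in No NR mice. The 2 ranges overlapped almost whole: 1 No NR mouse lay under and 2 Ctrl NR mice lay above the other group. Its log2 difference was -0.25 (SE 0.233; limma adjusted p = 0.653) and became -0.01 with the macrophage marker mean as a covariate. Slc2a1, the transporter GLUT1 that most cell types carry, ranged from -0.49 to 0.56 with a median of 0.10 in Ctrl NR and from -0.20 to 0.37 with a median of 0.14 in No NR mice. Its log2 difference was -0.01 (95% interval -0.22 to 0.19), and 8 of 12 No NR mice lay above the median of the Ctrl NR mice.

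Among the 9 genes from hexokinase to aldolase and triose isomerase, 4 were higher and 5 lower, and 3 met the unadjusted level. Tpi1, triosephosphate isomerase, had the lowest p of them. Its log2 ratio ranged from -0.56 to -0.05 with a median of -0.37 in Ctrl NR and from -0.36 to 0.30 with a median of -0.05 in No NR mice. All 12 No NR mice lay above the median of the Ctrl NR mice and 6 lay above every one of them. The means of -0.32 ± 0.20 and -0.06 ± 0.19 (SD, n = 12) gave a log2 difference of 0.26 (SE 0.0801, 1.20-fold; limma p = 0.00285, adjusted p = 0.140), positive on all 5 slides, from 0.01 to 0.72. A second, dimmer probe of Tpi1 gave 0.10.

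The phosphofructokinases, which catalyse the committed step of glycolysis, differed in direction in these values. Pfkl, the liver type, ranged from -0.61 to 0.52 with a median of 0.08 in Ctrl NR mice and from -0.38 to 0.09 with a median of -0.25 in No NR mice, so that 6 Ctrl NR mice lay above all No NR mice. Its log2 difference was -0.26 (SE 0.090; limma p = 0.00747, adjusted p = 0.195), negative on all 5 slides. It passed in 1 alternative, without Ctrl NR mouse 117, at -0.32 with an adjusted p of 0.0417. Pfkm, the muscle type, ranged from -0.29 to 0.32 with a median of 0.12 in Ctrl NR and from -0.30 to 0.10 with a median of -0.08 in No NR mice. All 12 No NR mice lay under the median of the Ctrl NR mice. The log2 difference was -0.17 (SE 0.0617; limma p = 0.00857, adjusted p = 0.199), again negative on all 5 slides. Pfkm rose with the endothelial marker mean (r = 0.63, rho = 0.56, permutation p = 0.00087 and 0.00472; 0.59 without the 2 mice farthest from the median), and its difference with that mean as a covariate was -0.12 (limma p = 0.0626). Pfkl then stood at -0.22 (limma p = 0.0302). Pfkp, the platelet type, ran the other way: it ranged from -0.81 to 0.17 with a median of -0.29 in Ctrl NR and from -0.30 to 0.13 with a median of -0.06 in No NR mice, with 11 of 12 No NR mice above the median of the Ctrl NR mice. Its log2 difference was 0.17 (SE 0.0856; limma p = 0.0526, adjusted p = 0.360), positive on all 5 slides, and with slide as a block it was 0.18 (limma p = 0.0370, adjusted p = 0.348). The dimmer of its 2 probes gave -0.06. Pfkl and Pfkm are named for their p-values, after these were seen.

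**Figure D2:**
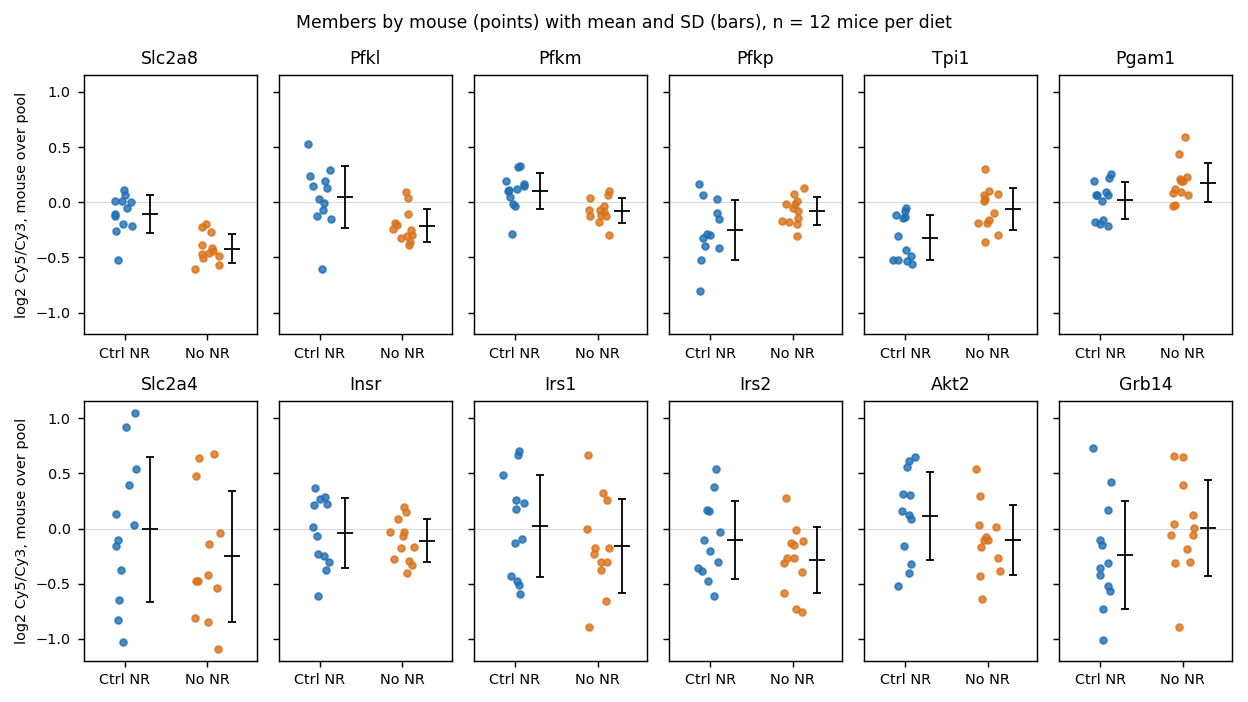
Log2 ratio of each mouse over the pool for 12 genes, in blue for Ctrl NR and in orange for No NR, with the mean and SD of each diet in black (n = 12 per diet). All 12 No NR mice lie under the Ctrl NR median for Slc2a8 and Pfkm and above it for Tpi1, while the diets share nearly the same range for Slc2a4.

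Hk2, the hexokinase of insulin-sensitive tissues, ranged from -0.54 to 1.13 with a median of 0.03 in Ctrl NR and from -0.46 to 0.47 with a median of -0.13 in No NR mice. The lowest and the highest mouse were both Ctrl NR. Its log2 difference of -0.21 (SE 0.148; limma adjusted p = 0.549) was smaller than the SD of 0.46 and 0.31 within the diets. The rest of this group did not pass either: Hk1, the widely expressed hexokinase, was at -0.11, Pfkfb3, which makes the allosteric activator fructose-2,6-bisphosphate, at -0.11, Gpi1, glucose-6-phosphate isomerase, at 0.11 and Aldoa, aldolase A, at 0.14. With slide as a block Gpi1 was at 0.13 (limma p = 0.0212, adjusted p = 0.300). A dimmer probe of Hk1 gave -0.28. These values moved with single mice: without Ctrl NR mouse 115, Hk2 was at -0.11 and Pfkfb3 at -0.037, and without No NR mouse 118, Hk1 was at -0.029 and Aldoa at 0.069.

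The 6 genes from glyceraldehyde phosphate to pyruvate had differences from -0.09 to 0.16. Pgam1, phosphoglycerate mutase, had the lowest p: it ranged from -0.21 to 0.26 with a median of 0.06 in Ctrl NR and from -0.03 to 0.59 with a median of 0.16 in No NR mice. Of the Ctrl NR mice 4 lay under all No NR mice, and 2 No NR mice lay above all Ctrl NR mice. The log2 difference was 0.16 (SE 0.0726; limma p = 0.0354, adjusted p = 0.314), positive on all 5 slides, but -0.024 with median centring in place of loess. Pgk1, phosphoglycerate kinase, the first enzyme of the pathway to yield ATP, ranged from -0.46 to 0.28 with a median of 0.01 in Ctrl NR and from -0.30 to 0.45 with a median of 0.17 in No NR mice (log2 difference 0.15, SE 0.091; limma adjusted p = 0.466). Its difference was -0.45 on slide 1 and -0.01 on slide 3 and positive on the others. Pkm, the pyruvate kinase of most tissues other than liver, ranged from -0.64 to 0.42 with a median of -0.18 in Ctrl NR and from -0.59 to 0.03 with a median of -0.12 in No NR mice, a log2 difference of -0.03 (95% interval -0.26 to 0.20). Gapdh was at -0.09, and its 7 probes ran from -0.09 to 0.07, with signs that differed; probes of this gene may also bind transcripts of its many pseudogene copies. Eno1, the widely expressed enolase, and Eno3, the muscle enolase, were both within 0.01 of 0.

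Of the genes for the fate of pyruvate and of glycogen, Ldhb, the lactate dehydrogenase subunit typical of oxidative tissue, had the lowest p. It ranged from -0.83 to 0.24 with a median of 0.05 in Ctrl NR and from -0.84 to 0.42 with a median of -0.39 in No NR mice. Both ends of the No NR range lay outside that of the Ctrl NR mice. Its log2 difference was -0.21 (SE 0.139; limma adjusted p = 0.511), and -0.08 with the macrophage marker mean as a covariate. Ldha, the subunit typical of glycolytic tissue, was at 0.11 (n = 10 Ctrl NR mice, since outlier spots were left out on 2 arrays), with 0.18 and -0.04 for its 2 dimmer probes, and Pdk1, which switches pyruvate dehydrogenase off, at 0.04. Gys1, the glycogen synthase of muscle and fat, ranged from -0.82 to 0.51 with a median of -0.02 in Ctrl NR and from -0.71 to 0.35 with a median of -0.34 in No NR mice, a log2 difference of -0.15 (SE 0.137; limma adjusted p = 0.643). Gbe1 was at -0.06.

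In the insulin pathway, the receptor and its 3 substrates were all lower in No NR mice by amounts smaller than their SD within a diet. Insr ranged from -0.61 to 0.36 with a median of -0.03 in Ctrl NR and from -0.40 to 0.19 with a median of -0.12 in No NR mice (log2 difference -0.07, 95% interval -0.28 to 0.14), and its 3 probes gave -0.06, -0.14 and -0.07. Irs1, the substrate on which fat-cell insulin signalling mainly relies, ranged from -0.59 to 0.71 with a median of 0.04 in Ctrl NR and from -0.89 to 0.67 with a median of -0.20 in No NR mice (log2 difference -0.18, SE 0.168; limma adjusted p = 0.646). Irs2, the main substrate in liver, ranged from -0.61 to 0.54 with a median of -0.16 in Ctrl NR and from -0.75 to 0.28 with a median of -0.27 in No NR mice (log2 difference -0.18, SE 0.125; limma adjusted p = 0.522). The spread of Irs1 and Irs2 across mice was wide in both diets, and their ranges overlapped almost whole. Irs3, a substrate found in rodent fat, ranged from -0.40 to 0.49 with a median of 0.25 in Ctrl NR and from -0.33 to 0.25 with a median of 0.03 in No NR mice. For Irs3, 11 of 12 No NR mice lay under the median of the Ctrl NR mice, with a log2 difference of -0.15 (SE 0.0893; limma p = 0.102, adjusted p = 0.450).

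Downstream of the substrates, Akt2, the AKT isoform through which insulin acts on glucose uptake, ranged from -0.52 to 0.65 with a median of 0.14 in Ctrl NR and from -0.64 to 0.54 with a median of -0.10 in No NR mice. Of the No NR mice 10 of 12 lay under the median of the Ctrl NR mice. Its log2 difference was -0.22 (SE 0.137; limma p = 0.114, adjusted p = 0.468), and its 3 probes gave -0.30, -0.20 and -0.22. The other isoform, Akt1, was at -0.04 (95% interval -0.17 to 0.09), and the PI3 kinase subunits Pik3r1, the regulatory p85 alpha, and Pik3ca, the catalytic p110 alpha, were at 0.02 and -0.06. Foxo1, the forkhead factor that insulin inactivates through AKT, ranged from -0.41 to 0.36 with a median of -0.01 in Ctrl NR and from -0.47 to 0.22 with a median of -0.18 in No NR mice (log2 difference -0.16, SE 0.0905; limma p = 0.0953, adjusted p = 0.440). A second probe of Foxo1 gave -0.03. G6pc3, the widely expressed glucose-6-phosphatase, was at -0.07.

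The 2 genes of GLUT4 trafficking were both lower without passing. Tbc1d4 (AS160), the Rab inhibitor that AKT switches off to release GLUT4 vesicles, ranged from -0.45 to 0.40 with a median of -0.24 in Ctrl NR and from -0.68 to 0.02 with a median of -0.34 in No NR mice. Of the No NR mice 4 lay under every Ctrl NR mouse. The log2 difference was -0.18 (SE 0.0930; limma p = 0.0658, adjusted p = 0.389) and -0.22 for a dimmer probe. Trarg1, a membrane protein of GLUT4 vesicles, ranged from -0.51 to 0.28 with a median of 0.09 in Ctrl NR and from -0.46 to 0.35 with a median of -0.09 in No NR mice, with a log2 difference of -0.11 (SE 0.0990; limma adjusted p = 0.637).

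Of the brakes on the receptor, Ptpn1 (PTP1B, the phosphatase that dephosphorylates it) ranged from -0.44 to 0.48 with a median of -0.03 in Ctrl NR and from -0.52 to 0.25 with a median of -0.12 in No NR mice. Its log2 difference of -0.16 (SE 0.101; limma p = 0.123, adjusted p = 0.480) became -0.24 with the macrophage marker mean as a covariate (limma p = 0.00196, adjusted p = 0.110). In that fit, 14.9% of all features had an unadjusted p under 0.05. A dimmer probe of Ptpn1 gave a diet difference of -0.02 without the covariate. Socs3, induced by cytokines to block the receptor, was at -0.22, and Grb14, an adaptor that inhibits its kinase, at 0.24, the highest value among the insulin signalling genes; neither passed. Grb14 also had one of the widest spreads between mice, with an SD of 0.49 among Ctrl NR and 0.43 among No NR mice. In the IGF axis, Igf1, the growth factor itself, ranged from -0.53 to -0.09 with a median of -0.23 in Ctrl NR and from -0.58 to 0.00 with a median of -0.21 in No NR mice (log2 difference 0.04, 95% interval -0.09 to 0.17). Its receptor Igf1r ranged from -0.56 to 0.63 with a median of -0.08 in Ctrl NR and from -0.50 to 0.01 with a median of -0.20 in No NR mice (log2 difference -0.10, 95% interval -0.31 to 0.11; limma adjusted p = 0.675), and the carrier Igfbp3 was at -0.02.

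Other genes of the same pathways, were taken from lists written down for this work. Of 39 measured genes of glycolysis, pyruvate oxidation and glycogen outside the 42, 14 had higher and 25 had lower values in No NR mice (median -0.03), with 2 at an unadjusted p under 0.05 (5.13%, under the 14.1% of all features). These were Gaa, the lysosomal glucosidase that degrades glycogen, at -0.20 (SE 0.0697; limma adjusted p = 0.195), and Pdk2, a pyruvate dehydrogenase kinase, at -0.27 (SE 0.105; limma adjusted p = 0.240). Pdp2, the phosphatase that reverses that kinase, was at -0.24, Pdk4, the kinase induced by fasting, at -0.17 and Hk3, a hexokinase of myeloid cells, at 0.26. Of 58 measured genes of insulin signalling outside the 42, 18 had higher and 40 had lower values (median -0.05), with 5 at an unadjusted p under 0.05, all lower (8.62%, near the 7.23% of all features that were lower at this level and under the 14.1% in either direction). They include Rptor, the scaffold of mTORC1, at -0.21 (SE 0.0638; limma adjusted p = 0.143), the adaptor Shc1 at -0.14 and the inhibitor Socs1 at -0.20. Grb10, an adaptor that inhibits the insulin receptor, was at -0.33. None of the 39 and none of the 58 passed an adjusted p under 0.05 in limma, and Igf2 was not measured.

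Pairs of related genes were compared within each mouse, by the difference of their 2 log2 ratios, in a permutation test with 100000 resamples. Of 8 pairs, 0 differed between diets at a p adjusted over the 8 pairs under 0.05, and 2 did at an unadjusted p under 0.05. Pfkp minus Pfkm ranged from -1.13 to 0.32 with a median of -0.43 in Ctrl NR and from -0.21 to 0.28 with a median of -0.11 in No NR mice. All 12 No NR mice lay above the median of the Ctrl NR mice, and 9 Ctrl NR mice lay under every No NR mouse. The means were -0.35 ± 0.40 and 0.00 ± 0.19 (SD, n = 12), a difference of 0.35 on the log2 scale (permutation p = 0.0101, adjusted over the 8 pairs 0.0805). It was positive on all 5 slides, at 0.23, 0.21, 0.38, 0.52 and 0.51, and with slide means removed the adjusted p was 0.0174. That test permuted the diet labels over all mice and not within slides, so its p does not take the slide layout into account. With the dimmer probe of Pfkp it was 0.12 (p = 0.167), so the size rests on the brighter probe. Without 1 mouse at a time it ran from 0.28 (without Ctrl NR mouse 64) to 0.41 (without Ctrl NR mouse 117).

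**Figure D3:**
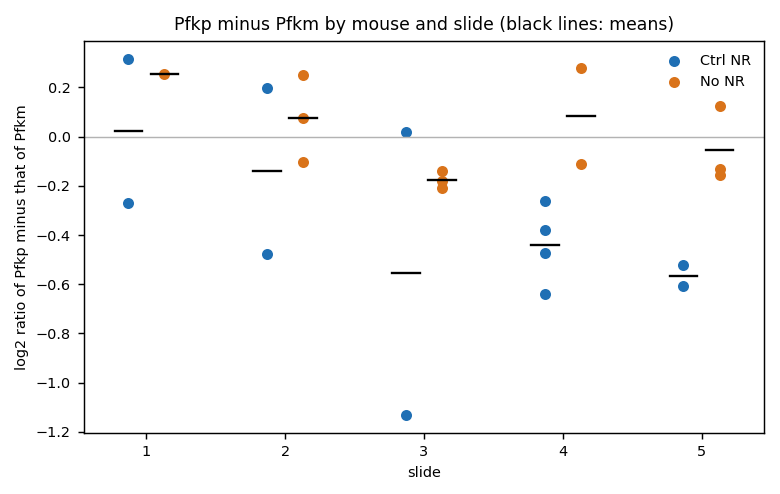
Log2 ratio of Pfkp minus that of Pfkm for each mouse, by slide, in blue for Ctrl NR and in orange for No NR, with black lines for the mean of each diet on a slide. The No NR mean lies above the Ctrl NR mean on all 5 slides, by 0.21 to 0.52, and slide 1 holds 1 No NR mouse.

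Ldha minus Ldhb ranged from -0.56 to 0.67 with a median of -0.13 in 10 Ctrl NR mice and from -0.35 to 0.64 with a median of 0.37 in 12 No NR mice. The difference was 0.33 (permutation p = 0.0326, adjusted 0.130), with 10 of 12 No NR mice above the median of the Ctrl NR mice and a positive value on all 5 slides. The difference passed without Ctrl NR mouse 88 (adjusted p = 0.0474) and without No NR mouse 78 (adjusted p = 0.0482). Other settings weakened it. It was 0.27 without background subtraction (permutation p = 0.102) and 0.30 in the authors' processed signals (permutation p = 0.0761). Median centring gave 0.22 (permutation p = 0.232) and the mean of the kept probes 0.29 (permutation p = 0.0740). Without Ctrl NR mouse 75 it was 0.28 (permutation p = 0.0650). The other 6 pairs had differences between -0.09 (Pfkl minus Pfkm) and 0.23 (Slc2a1 minus Slc2a4), with adjusted p-values of 0.574 or more.

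The second comparison followed the members from mouse to mouse, since the marker means varied more between mice than between the diets. The macrophage and adipocyte marker means ran in opposite directions across the 24 mice (Pearson r = -0.95, Spearman rho = -0.95, both permutation p = 1e-05, the smallest that 100000 resamples can give), at r = -0.95 within Ctrl NR and -0.97 within No NR mice. In limma with the macrophage mean as the covariate, 22 of 41 members passed an adjusted p under 0.05 over all features: 5 rose and 17 fell as the mean rose, where 16.1% of all features rose and 10.6% fell. With the adipocyte mean, 15 members rose and 6 fell, where 10.1% and 15.8% of all features did. The split was alike in both lists: with the macrophage mean, 3 glycolysis genes rose and 9 fell (median r = -0.25), and 2 insulin signalling genes rose and 8 fell (median r = -0.20), against a median r of 0.02 over all features. In the other scalings of the same arrays, the numbers of members that rose and fell were 3 and 18 without background subtraction (15.8% and 12.2% of all features), 4 and 18 in the authors' processed signals (17.6% and 18.5%) and 13 and 9 with median centring over the kept features (19.6% and 32.0% of all features). With median centring over all spots, 35 rose and 0 fell, where 82.0% of all features rose and 0.0381% fell with the macrophage mean, and 82.3% rose and 0.0190% fell with the adipocyte mean, although these means oppose each other. Within Ctrl NR mice 3 members rose and 11 fell with the macrophage mean (9.62% and 5.53% of all features), and within No NR mice 5 rose and 8 fell (12.2% and 6.93%). With the adipocyte mean, 8 rose and 5 fell within No NR mice (5.81% and 11.7%).

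**Figure D4:**
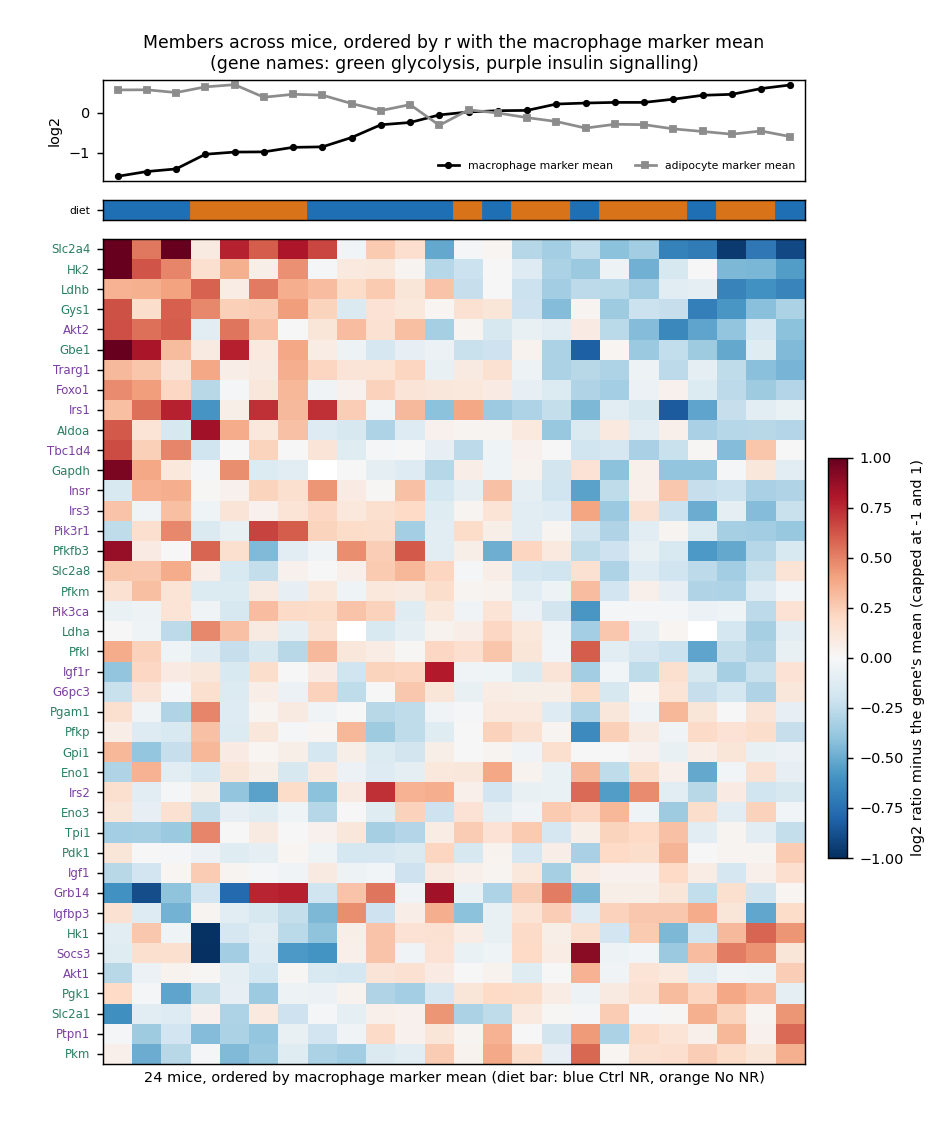
Log2 ratios of the 41 measured genes (rows, ordered by their r with the macrophage marker mean, from -0.92 for Slc2a4 at the top to 0.72 for Pkm at the bottom) in 24 mice (columns, ordered by the macrophage marker mean), each less the gene's mean over mice, from blue (low) to red (high). The upper line plot gives the macrophage and adipocyte marker means, and the bar the diet (blue Ctrl NR, orange No NR); mice of both diets lie at both ends, and blank cells are missing values.

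Of the genes that fell as macrophage markers rose, the 4 with the lowest r were Slc2a4, Hk2, Ldhb and Gys1. Slc2a4 had r = -0.92 (rho = -0.92, both permutation p = 1e-05; limma adjusted p = 1.24e-10), Hk2 r = -0.88, Ldhb r = -0.86 and Gys1 r = -0.85 (permutation p = 1e-05 for each). Next came Akt2 at -0.84, Gbe1 at -0.82, Trarg1 at -0.82, Foxo1 at -0.69 and Irs1 at -0.64, which with median centring over all spots had 0.43, 0.18, 0.56, 0.58 and 0.35. For Slc2a4, r was -0.92 within Ctrl NR, -0.91 within No NR, -0.94 with slide means removed and -0.92 without the 2 mice farthest from the median. Slc2a4, Hk2, Ldhb and Gys1 kept negative values with median centring over the kept features (-0.72, -0.70, -0.63 and -0.64), but had values of 0.08, 0.31, 0.36 and 0.36 with median centring over all spots. Aldoa (r = -0.61) and Gapdh (r = -0.59; rho = -0.39, permutation p = 0.0708) also fell, but turned to 0.08 and 0.11 with median centring over the kept features. The 6 dimmer probes of Gapdh had r from -0.52 to 0.09, so -0.59 was the lowest of 7. Insr (-0.58), Irs3 (-0.57), Pik3r1 (-0.54), Tbc1d4 (-0.60), Pfkfb3 (-0.53) and Slc2a8 (-0.51) passed in the same direction, and turned positive with median centring over all spots.

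The 5 genes that rose with the macrophage mean were Pkm (r = 0.72, rho = 0.70, permutation p = 8e-05 and 0.0002; limma adjusted p = 0.000293), Ptpn1 (r = 0.65), Slc2a1 (r = 0.59), Pgk1 (r = 0.51) and Socs3 (r = 0.46). Pkm stood at 0.74 within Ctrl NR, 0.78 within No NR and 0.77 without the 2 mice farthest from the median. Pgk1 was at 0.15 within Ctrl NR and 0.90 within No NR mice; the difference between those values was not tested. All 5 were positive in each of the 4 other scalings. Of these, median centring over all spots made 82.0% of all features rise, so a positive sign there sets no gene apart. Hk1 (r = 0.41; limma adjusted p = 0.0947) and Akt1 (r = 0.47; limma adjusted p = 0.0985) did not pass. A dimmer probe of Hk1 had r = -0.23, and a dimmer probe of Ptpn1 had r = 0.28. Pfkp, Pgam1, Gpi1 and Eno1 lay within 0.05 of 0. The percentage of spots well above background, which varies with array brightness, had r = 0.28 with the macrophage mean (permutation p = 0.191) and rho = 0.23 (permutation p = 0.286), and r = 0.01 without the 2 arrays farthest from the median. With the mean of the glycolysis genes it had r = -0.39 (permutation p = 0.0586; rho = -0.13, permutation p = 0.556), -0.50 within Ctrl NR, -0.22 within No NR and 0.04 without those 2 arrays. With the mean of the insulin signalling genes it had r = 0.16 (permutation p = 0.465; rho = 0.16, permutation p = 0.445).

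The relation was not one with macrophage markers alone. The stromal progenitor mean followed the macrophage mean (r = 0.91, rho = 0.85, both permutation p = 1e-05), and the endothelial mean opposed it (r = -0.72, rho = -0.75, permutation p = 0.00017 and 5e-05). In limma, 4 members rose and 14 fell with the stromal progenitor mean, where 14.7% and 8.67% of all features did, and 13 rose and 2 fell with the endothelial mean, where 8.39% and 11.4% did. With the stromal progenitor mean, Hk2 had r = -0.90 (rho = -0.88), Slc2a4 r = -0.83 (rho = -0.84) and Gbe1 r = -0.80 (rho = -0.78), with permutation p-values of 1e-05, 1e-05 and 2e-05 for r and 1e-05, 1e-05 and 3e-05 for rho. Their r was -0.82, -0.80 and -0.64 when the 2 mice with the most extreme means were left out. These 3 had 0.51, 0.34 and 0.40 with median centring over all spots, which made 40 of 41 members rise with that mean (87.3% of all features). With the endothelial mean, Irs3 had r = 0.81 (rho = 0.74), Trarg1 r = 0.77 (rho = 0.73) and Gys1 r = 0.76 (rho = 0.72), with permutation p-values of 1e-05, 4e-05 and 4e-05 for r. Pgk1 had r = -0.69 (rho = -0.68, permutation p = 0.00029 and 0.00047). Without the 2 mice farthest from the median, Trarg1, Gys1 and Pgk1 had 0.70, 0.73 and -0.67. Irs3, Trarg1 and Gys1 kept their sign in the 4 other scalings, while Pgk1 turned to 0.80 with median centring over all spots. In that scaling all 41 members rose with the endothelial mean, as did 87.6% of all features, so a positive sign there sets no gene apart.

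Differences between some related genes varied along this axis, but only the transporters had both members passing, in opposite directions. Hk1, Akt1, Irs2 (r = 0.06) and Ldha (r = -0.26) did not pass on their own. The differences of those pairs therefore mostly carry the relation of Hk2, Akt2, Irs1 and Ldhb. Slc2a1 minus Slc2a4 followed the macrophage mean at r = 0.88 (rho = 0.87), Akt1 minus Akt2 at 0.85 (rho = 0.83) and Hk1 minus Hk2 at 0.80 (rho = 0.77), each with a permutation p of 1e-05 for r (2.7e-05 adjusted over the 8 pairs). Ldha minus Ldhb followed it at 0.77 (adjusted p = 0.0001) and Irs1 minus Irs2 at -0.51 (adjusted p = 0.0189). The range over the 4 other scalings was 0.61 to 0.86 for the transporters, 0.73 to 0.90 for the AKT isoforms, 0.75 to 0.90 for the hexokinases, 0.77 to 0.89 for the lactate dehydrogenases and -0.62 to -0.46 for the substrates. None of these turned its sign. A shift of a whole array cancels in a difference within a mouse, however. Both median centrings therefore give the same pair differences and are not separate checks of them. Within each diet, the transporter difference had r = 0.89 and 0.85 and the AKT difference 0.95 and 0.68 (Ctrl NR and No NR). Pfkp minus Pfkm, with the lowest p between diets, had r = 0.20 (permutation p = 0.341) with the macrophage mean. Eno1 minus Eno3 had r = -0.09 and reached 0.55 with median centring over all spots.

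**Figure D5:**
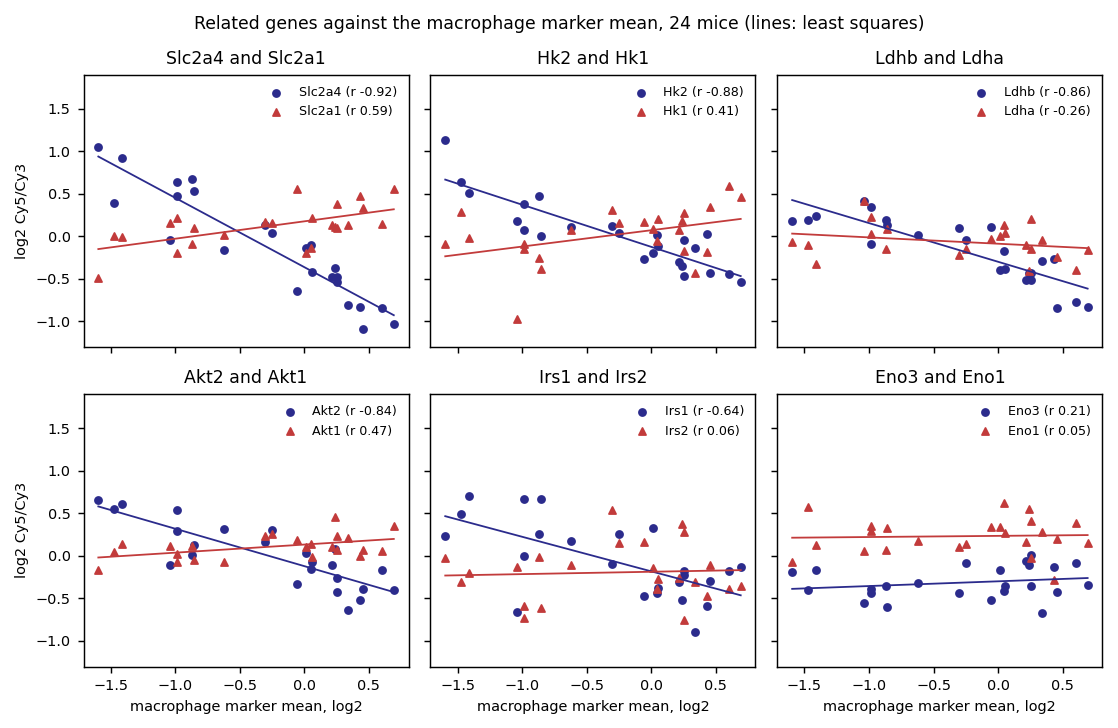
Log2 ratio of each mouse against its macrophage marker mean for 6 pairs of related genes, with least-squares lines and the Pearson r of each gene (24 mice; 22 for Ldha). Slc2a4, Hk2, Ldhb, Akt2 and Irs1 fall from left to right, while Slc2a1 rises and Hk1 and Akt1 have positive r of 0.41 and 0.47; Eno1 and Eno3 have r of 0.05 and 0.21.

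Among the members themselves, 820 pairs were related across mice, with a median r of 0.02 and a range from -0.75 to 0.89. The closest was Hk2 with Gbe1 (r = 0.89, rho = 0.82; 0.92 within Ctrl NR and 0.89 within No NR), a pair that makes glucose-6-phosphate and branches glycogen. Slc2a4 was most like Gys1 (r = 0.88, rho = 0.92, both permutation p = 1e-05) and Akt2 most like Slc2a4 (r = 0.86). Pkm and Ptpn1 were most like each other (r = 0.77, rho = 0.78), as were Pfkl and Pfkm (r = 0.77, rho = 0.74), the latter at 0.82 within Ctrl NR but 0.31 within No NR mice. Slc2a8 was most like Pfkm (r = 0.74, rho = 0.76), at 0.73 within Ctrl NR and 0.35 within No NR mice. Pfkp was most like Pgam1 (r = 0.71, rho = 0.75), and it ran against Pfkm (r = -0.61, rho = -0.59, permutation p = 0.00137 and 0.00257; -0.60 within Ctrl NR and -0.28 within No NR). The 414 pairs of a glycolysis with an insulin signalling gene had a median r of 0.01, against 0.03 within glycolysis and 0.05 within insulin signalling.

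Promoter sequences of RefSeq (build GRCm38.p6) were set beside the groups that fell or rose with the macrophage mean. Genes of a group need not follow each other: the highest r of Slc2a1 with any member was 0.43, with Grb14. Printed are the promoters of the genes with the 3 lowest and the 3 highest r that had one in the RefSeq set. That of Slc2a8 is added for its difference between diets. Each is the 250 bases before the most upstream start listed, read 5′ to 3′ on the gene's strand. Of the 42 genes 39 matched; Slc2a4, Insr and Trarg1 did not. Capitals mark the letters GGGCGG of the GC box, the letters CCAAT of the box named after them, the letters CACGTG of the E-box and the letters GTAAACA of the forkhead motif, searched on both strands, and matches may overlap. From the group that fell as macrophage markers rose come Hk2 (chr6:82774455-82774704 on the minus strand), Ldhb (chr6:142507958-142508207 on the minus strand) and Gys1 (chr7:45434589-45434838 on the plus strand).
Hk2: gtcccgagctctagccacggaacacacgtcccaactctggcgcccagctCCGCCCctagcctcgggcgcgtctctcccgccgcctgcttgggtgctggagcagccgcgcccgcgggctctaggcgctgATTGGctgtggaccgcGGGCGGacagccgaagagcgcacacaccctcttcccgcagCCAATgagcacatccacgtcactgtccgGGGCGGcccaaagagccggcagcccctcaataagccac
Ldhb: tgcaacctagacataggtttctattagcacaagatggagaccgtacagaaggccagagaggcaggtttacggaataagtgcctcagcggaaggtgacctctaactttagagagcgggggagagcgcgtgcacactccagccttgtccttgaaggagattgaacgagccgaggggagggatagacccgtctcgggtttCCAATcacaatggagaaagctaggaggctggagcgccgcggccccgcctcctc
Gys1: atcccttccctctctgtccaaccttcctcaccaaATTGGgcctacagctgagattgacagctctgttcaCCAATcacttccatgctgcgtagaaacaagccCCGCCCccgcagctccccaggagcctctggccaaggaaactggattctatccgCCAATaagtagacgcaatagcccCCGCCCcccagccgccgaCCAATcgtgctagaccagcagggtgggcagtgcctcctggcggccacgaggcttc
From the group that rose come Pkm (chr9:59656326-59656575 on the plus strand), Ptpn1 (chr2:167932077-167932326 on the plus strand) and Slc2a1 (chr4:119108495-119108744 on the plus strand).
Pkm: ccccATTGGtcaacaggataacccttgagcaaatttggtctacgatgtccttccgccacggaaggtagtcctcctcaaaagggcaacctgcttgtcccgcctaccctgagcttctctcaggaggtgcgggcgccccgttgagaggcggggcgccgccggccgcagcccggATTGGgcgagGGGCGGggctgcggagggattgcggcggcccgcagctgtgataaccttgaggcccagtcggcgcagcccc
Ptpn1: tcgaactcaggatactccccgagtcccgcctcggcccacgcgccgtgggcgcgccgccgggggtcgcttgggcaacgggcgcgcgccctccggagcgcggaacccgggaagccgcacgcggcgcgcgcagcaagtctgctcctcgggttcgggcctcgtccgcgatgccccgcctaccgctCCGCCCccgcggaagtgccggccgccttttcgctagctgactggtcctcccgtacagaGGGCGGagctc
Slc2a1: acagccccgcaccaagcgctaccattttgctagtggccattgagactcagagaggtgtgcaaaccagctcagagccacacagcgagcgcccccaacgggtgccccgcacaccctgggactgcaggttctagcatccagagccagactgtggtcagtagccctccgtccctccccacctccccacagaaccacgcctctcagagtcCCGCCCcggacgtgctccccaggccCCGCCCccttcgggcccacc
The last is Slc2a8 (chr2:32982084-32982333 on the minus strand).
Slc2a8: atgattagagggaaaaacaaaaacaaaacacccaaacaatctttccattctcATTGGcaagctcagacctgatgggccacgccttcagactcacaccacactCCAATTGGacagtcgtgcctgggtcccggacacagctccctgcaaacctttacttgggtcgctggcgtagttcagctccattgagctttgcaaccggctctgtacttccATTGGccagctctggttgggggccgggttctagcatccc
Hk2 holds 3 GC boxes and 2 CCAAT boxes, Ldhb 1 CCAAT box, and Gys1 2 GC boxes and 4 CCAAT boxes. Pkm holds 1 GC box and 2 CCAAT boxes, and Ptpn1 and Slc2a1 hold 2 GC boxes each and no CCAAT box. Slc2a8 holds 4 CCAAT boxes, of which 2 overlap on opposite strands, and no GC box.

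A GC box lay in 24 of the 39 member promoters (61.5%), against 33.0% of 27025 promoters of the same length, and a CCAAT box in 13 (33.3%, against 34.5%). An E-box lay in 5 (12.8%, against 6.04%), those of Ldha, Pfkm, Irs1, Irs2 and G6pc3, and the forkhead motif in 1 (2.56%, against 3.06%), that of Akt1. All 5 promoters of the genes that rose with the macrophage mean held a GC box, as did 9 of 14 of those that fell. The median GC content was 60.0% in member promoters and 52.0% in all, and 66.4% in the 5 and 56.2% in the 14. These matches describe the letters in this window and were not tested.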

How the data were processed

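Linear intensity values per spot were read from the deposited scanner output of Agilent Feature Extraction 10.7.3.1 per the submitters' processing notes, and the authors' deposited value table holds log2 values that track each array's log2 Cy5 signal (r of 0.99 or more), with its normalization not given in the sources used here. Median spot signals were background-corrected with normexp (offset 50) and normalized by loess within arrays in limma 3.58.1 under R 4.3.3, with control spots at weight 0. Control and outlier spots were left out and spots of a probe averaged (55681 probes). A probe was kept when well above background in Cy5 on at least 6 of the 12 arrays of a diet (24769 probes), and the brightest kept probe stood for its gene. Accessions were named through a RefSeq table (GRCm38.p6), which matched 27235 probes; the files' build is another, so no probe coordinates are given.

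The diet contrast was fitted in limma (lmFit, eBayes) with no other term on 12 mice per diet, adjusted over all 21051 features. Each animal is 1 replicate, and the number of arrays limits the precision (median SE 0.0811). On simulated data built from the residuals, in 20 runs over the 21051 features, the fit recovered 86.7% of the features given a log2 change of 0.5, 98.5% at 1 and 99.6% at 1.5, with a median of 1 false call. Changes as small as the differences of the members (-0.31 to 0.26) were not simulated, so recovery at such sizes is not known. Marker means were covariates in limma, adjusted over all features; permutation p-values adjusted over the members had been planned and serve as an alternative. Correlations leave missing spots out, and marker means took the diet's mean for them. The members, gene lists, marker lists and pairs were chosen with earlier results of these data known. Full values are given for the member with the lowest p in each group by role, for 12 chosen genes (Slc2a4, Slc2a1, Hk2, Pfkp, Ldhb, Insr, Irs1, Irs2, Akt2, Foxo1, Trarg1 and Igf1), and for the 4 highest and 4 lowest r with the macrophage mean; of other pathway genes, for the 3 lowest p of each list and Hk3, Pdk4, Igf2, Grb10 and 1 gene that is not reported here. Alternatives changed the background correction, normalization, filter, probe choice, slide block, array weights and covariate, and left out each mouse in turn.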

Additional observations from a re-analysis of the deposited data

How the results depend on the processing

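No paired analysis was possible because the diets share no animal number. The count of features that passed an adjusted p under 0.05 was 0 in limma as reported (2968 at an unadjusted p under 0.05), 205 with array weights, 3 with the intensity trend, 3 with probes well above background on all 24 arrays, 1 with median centring over the kept features, 74 with the macrophage mean and 95 with the endothelial mean as a covariate, and 0 to 227 when 1 mouse was left out (220 without Ctrl NR mouse 117, 80 without 104, 227 without 68, 34 without 75, 9 without 77, 2 without No NR mouse 118 and 3 without 78). The count of members that passed was 1 (Slc2a8) with array weights and with the macrophage covariate, and 0 to 2 with 1 mouse left out. The count of members at an unadjusted p under 0.05 was 5 as reported, 11 with array weights (18.8% of all features), 9 with the macrophage covariate (14.9%), 0 with median centring (1.25%), and 4 to 8 with 1 mouse left out. Median centring moved the median of the glycolysis genes to -0.19 and of the insulin signalling genes to -0.22, while that of all features was -0.06, and it turned Pgam1 to -0.024. Of the 1640 values of single members under the alternatives, 1633 stayed on the same side of the threshold, with no change of sign in a value at an unadjusted p under 0.05, 6 passed only under the alternative (5 of Slc2a8 and 1 of Pfkl, given in the text) and 1 turned (Pgam1), and 21 of 41 members had 1 sign in all 40. Members that passed with the macrophage mean numbered 35 with median centring, 14 within Ctrl NR and 13 within No NR mice (22 in all mice), and with the adipocyte mean 41 with median centring and 13 within No NR mice (21 in all mice); fewer mice enter the fits within a diet. Pairs that differed between diets numbered 1 with slide means removed and 0 to 2 with 1 mouse left out. Alternatives chosen after seeing the data were the covariates, limma in place of permutation for the marker means, centring over the kept features, and leaving out mice or changing probes for the pairs. Signal over background limits what can be said of Foxo3, Igf2 and 9 of the 10 skeletal muscle markers.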
